A study of Mus musculus with 6 samples.

Results

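The 8 genes described here encode the dystrophin complex of skeletal muscle: *Dmd*, *Utrn*, *Dag1*, *Sgca*, *Sgcb*, *Sgcd*, *Sspn* and *Dtna*. They were taken by name from 41709 genes in the deposited expression table. The rule itself uses no measured value, but it was written with earlier results of these data known. All 8 passed the filter of a mean of at least 1 TPM (transcript abundance scaled to transcript length and to the library's total) and were among the 11611 genes tested. The syntrophin genes, which belong to the same complex, were not among the names, and those reported are given with its partners.

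The data are RNA-seq of 6 tibialis anterior muscles of male C57BL/6J mice, taken 14 days after electroporation of a plasmid that expresses Flag-tagged mouse Lrpprc from a CMV promoter. Lrpprc is a mitochondrial RNA-binding protein. In 3 muscles the plasmid carried the wild-type protein (LrpprcWT), and in the other 3 it carried the mutant LrpprcP27A, with an alanine at residue 27 where the mouse protein has a proline. The study's legend describes contralateral muscles, and both groups carry the same library numbers, so same-numbered libraries were taken as pairs. The main fit did not use the pairs, and a fit with the replicate number as a block did. The question for these genes is whether their mRNA levels differ between muscles given the mutant and muscles given the wild-type protein. The study used mice of 4 and 27 months, and the sources used here do not state outright which age the sequenced mice had. Both groups kept their endogenous *Lrpprc*, both received a plasmid by electroporation, and each muscle is a mixture of transfected fibres with other fibres and cells. A control-plasmid muscle was not analysed here.

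Dystrophin is a rod-shaped protein that ties the actin cytoskeleton of the muscle fibre to its plasma membrane. There it binds beta-dystroglycan, which with alpha-dystroglycan spans the membrane to laminin in the basement membrane, and the sarcoglycans and sarcospan brace that link. Dystrobrevin and the syntrophins sit on the inner face and hold signalling proteins such as neuronal nitric oxide synthase. Loss of dystrophin causes Duchenne muscular dystrophy, and loss of a sarcoglycan causes a limb-girdle form.

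The annotation (GENCODE, build GRCm39, which is also the build of the deposited values) places *Dmd* on chromosome X at 81992474 to 84249747 on the plus strand, with 79 exons in its canonical transcript. Its autosomal relative *Utrn* has 75 exons on chromosome 10, at 12257537 to 12745265 on the minus strand. *Dag1* lies on chromosome 9 at 108081833 to 108152333, *Sgca* on chromosome 11 at 94853605 to 94867273, *Sgcb* on chromosome 5 at 73790086 to 73805133, and *Sgcd* on chromosome 11 at 46787080 to 47879796, all on the minus strand. *Sspn* lies on chromosome 6 at 145877367 to 145910950 on the plus strand.

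The 250 bases before the start of the canonical transcript are shown for 3 members called lower with LrpprcP27A (*Dag1*, *Sgcb* and *Sspn*) and for *Sgca*, which did not pass the test. For *Dag1*, *Sgca* and *Sspn* that start lies inside the outer bounds of the gene given above, because other transcripts begin further upstream. Capitals mark matches, on either strand, to the GC box GGGCGG, the E-box core CAGCTG and the MCAT element CATTCC (the reverse strand reads CCGCCC and GGAATG).
Dag1: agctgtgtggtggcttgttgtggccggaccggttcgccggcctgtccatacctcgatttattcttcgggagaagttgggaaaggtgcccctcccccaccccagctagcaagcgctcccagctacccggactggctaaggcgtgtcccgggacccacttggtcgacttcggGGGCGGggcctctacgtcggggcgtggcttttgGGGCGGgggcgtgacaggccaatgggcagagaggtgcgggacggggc
Sgca: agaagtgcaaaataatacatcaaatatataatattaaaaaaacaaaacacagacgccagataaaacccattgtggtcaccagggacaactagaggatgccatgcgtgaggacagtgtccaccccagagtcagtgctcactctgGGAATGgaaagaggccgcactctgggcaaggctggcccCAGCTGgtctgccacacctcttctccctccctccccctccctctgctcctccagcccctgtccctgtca
Sgcb: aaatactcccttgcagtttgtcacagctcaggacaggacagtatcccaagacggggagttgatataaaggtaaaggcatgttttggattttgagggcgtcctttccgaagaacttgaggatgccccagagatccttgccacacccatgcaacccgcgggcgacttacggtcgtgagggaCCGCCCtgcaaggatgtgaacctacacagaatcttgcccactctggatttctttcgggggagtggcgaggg
Sspn: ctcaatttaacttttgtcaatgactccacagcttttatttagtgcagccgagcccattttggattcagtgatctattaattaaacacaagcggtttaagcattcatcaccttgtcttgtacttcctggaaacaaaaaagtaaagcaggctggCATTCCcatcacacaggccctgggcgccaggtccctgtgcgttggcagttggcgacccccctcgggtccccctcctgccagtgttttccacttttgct

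These windows are chr9:108141165-108141414 (minus strand), chr11:94864290-94864539 (minus strand), chr5:73805134-73805383 (minus strand) and chr6:145879583-145879832 (plus strand) of GRCm39, in the order shown. *Dag1* held 2 GC boxes, *Sgcb* held 1 GC box, *Sspn* held 1 MCAT element, and *Sgca* held 1 E-box core and 1 MCAT element. *Dtna*, which was called lower and is not printed, held 1 E-box core and 1 MCAT element as *Sgca* did. *Dmd*, *Utrn* and *Sgcd*, which were not called, held no GC box, E-box core or MCAT element. Whether the matches go with the calls was not tested. Of 21757 promoter windows of the same length, 36.3% held a GC box, 11.9% the E-box core and 12.1% the MCAT element. No motif searched was found in all 3 of the promoters of *Dag1*, *Sgcb* and *Sspn*. The searches for the ETS site CCGGAA (in 12.4% of windows) and the ERR site AAGGTCA (in 3.93%) matched *Utrn* alone among the members, with 1 ETS site. The G and C content of the windows was 66.8% for *Dag1*, 52.4% for *Sgca*, 53.6% for *Sgcb* and 48.4% for *Sspn*.

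TPM values sum to the same total in each library, so sequencing depth is unknown. Between 18603 and 19053 genes were above 0 in the LrpprcWT libraries and between 17774 and 18197 in the LrpprcP27A libraries. Mitochondrially encoded genes took 40.8%, 45.2% and 36.0% of the TPM in the LrpprcWT libraries and 46.1%, 44.2% and 45.1% in the LrpprcP27A libraries, and the part of this share in the members' lower TPM was not tested. LrpprcWT replicate 2 stood apart from its group, since its log2(TPM + 1) values correlated less with the other 2 LrpprcWT libraries (r = 0.981 and 0.983) than with LrpprcP27A replicate 1 (r = 0.989). *Lrpprc* itself, where plasmid and endogenous transcripts cannot be separated, was at 35.1, 37.0 and 75.2 TPM in the LrpprcWT libraries and at 26.9, 29.7 and 26.0 TPM in the LrpprcP27A libraries, with a log2 fold change of -0.72 (SE 0.26) and an adjusted p of 0.0652 (0.00243 with the replicate number as a block, and 0.331 after the scaling described next). Most genes were lower with LrpprcP27A on the TPM scale: the median log2 fold change over all tested genes was -0.32, and 88.0% of them were below 0. Dividing each library by a factor from the median ratio of its genes (median-of-ratios scaling) moved that median to -0.0047. The changes of the members are therefore given on both scales.

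Of the 8 complex genes, 4 were lower with LrpprcP27A on the TPM scale (*Dag1*, *Sgcb*, *Sspn* and *Dtna*), and no member was higher. The mean level of these 4 genes with LrpprcP27A was between 0.700 and 0.749 times that with LrpprcWT. The other 4 members, *Dmd*, *Utrn*, *Sgca* and *Sgcd*, did not pass the test. The count was 4 of 8 against 23.3% of all tested genes called lower and 1.34% called higher by limma at an adjusted p under 0.05. Log2 fold changes were below 0 in 7 of 8 members, and the median over the members was -0.45, beside -0.32 over all tested genes. After median-of-ratios scaling no member was called (6.03% of tested genes were called lower and 5.25% higher), none had an unadjusted p under 0.05 in the lower direction, and the median over the members was -0.11. With the replicate number as a block, 5 of 8 members were called lower, the 4 above and *Utrn*, while 48.4% of all tested genes were called lower and 2.69% higher. With the block and the scaling together, no member was called, against 15.8% lower and 13.4% higher among all tested genes.

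The count of 4 changed when single libraries were left out, as did the count over all tested genes. Each such fit has a smaller group, so a lost call does not show that the difference came from 1 library. The log2 fold changes of the 4 genes stayed below 0 (*Dag1* -0.59 to -0.42, *Sgcb* -0.61 to -0.40, *Sspn* -0.51 to -0.32, *Dtna* -0.56 to -0.37). The count was 0 without LrpprcWT replicate 1, LrpprcWT replicate 3, LrpprcP27A replicate 2 or LrpprcP27A replicate 3. It was 1 (*Dag1*) without LrpprcP27A replicate 1. Without LrpprcWT replicate 2, the library that stood apart, 7 members were called lower, that is every member other than *Sgcd*. Of all 11611 tested genes, 291 were called lower without LrpprcWT replicate 1, 6913 without LrpprcWT replicate 2 and 15 without LrpprcWT replicate 3. The numbers were 1688, 504 and 440 without LrpprcP27A replicate 1, 2 and 3. The counts given below for other lists without a library are to be read beside these. LrpprcWT replicate 1 held the highest level of 8 of 8 members, and LrpprcWT replicate 2 held the lowest level within its group for 8 of 8.

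**Figure D1:**
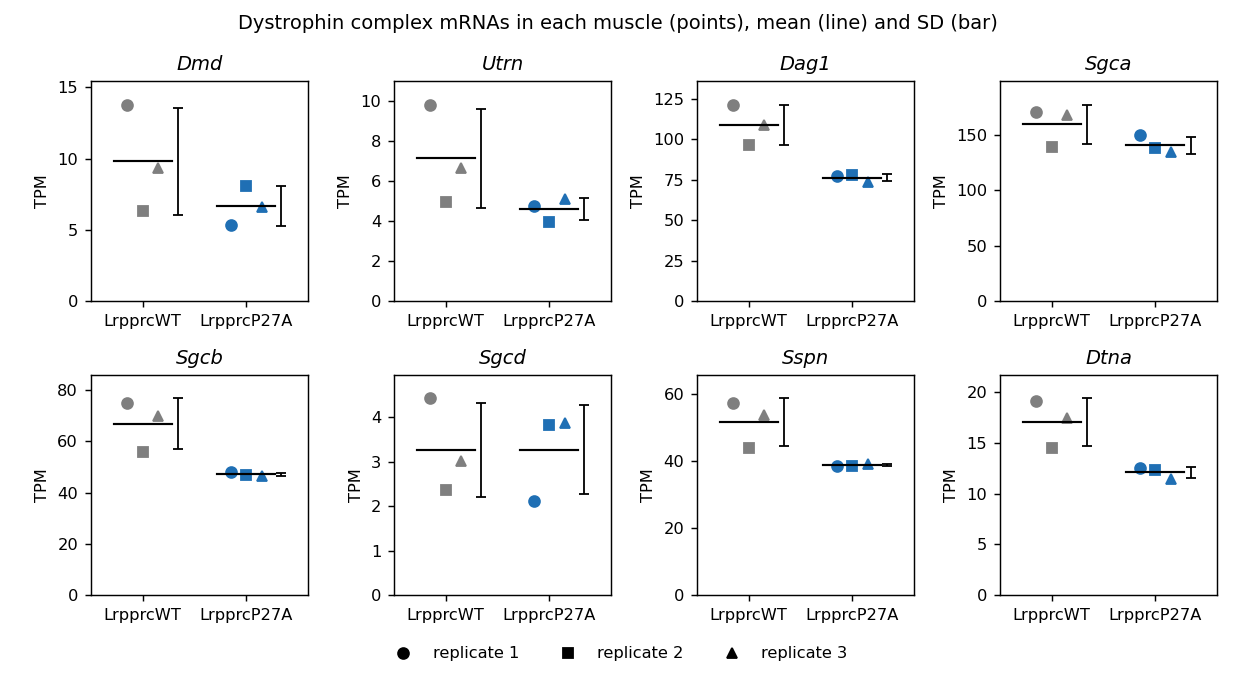
TPM of each of the 8 complex genes in each muscle, by group, with replicate numbers as point shapes, the mean as a line and the SD as a bar (n = 3 per group). The LrpprcP27A points of Dag1, Sgcb, Sspn and Dtna lie close together and below every LrpprcWT point, while those of Dmd, Utrn, Sgca and Sgcd overlap the LrpprcWT points.

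*Dag1* encodes the precursor that is cleaved into alpha- and beta-dystroglycan, the laminin receptor of the complex. It was at 121, 96.6 and 109 TPM in the LrpprcWT libraries and at 77.4, 77.8 and 73.8 TPM in the LrpprcP27A libraries. All 3 mutant libraries were below all 3 wild-type libraries, as they were for 4 of 8 members and for 47.6% of all tested genes. The mean fell from 109 ± 12.4 to 76.3 ± 2.22 TPM (SD, n = 3 each), a log2 fold change of -0.50 (SE 0.11, adjusted p = 0.0240). After scaling, the log2 fold change was -0.13 (95% interval -0.34 to 0.08, adjusted p = 0.334). *Dag1* passed the threshold on the TPM scale in 2 of the 6 fits that left out a library, and its largest adjusted p among the 6 was 0.0993, without LrpprcWT replicate 3.

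The sarcoglycans form a membrane subcomplex, and of the 3 in the set only *Sgcb* passed the test. Differences between the 3 genes were not tested, and their 95% intervals overlap. *Sgcb*, beta-sarcoglycan, was at 75.1, 56.0 and 69.8 TPM with LrpprcWT and at 48.0, 47.0 and 46.6 TPM with LrpprcP27A. The groups did not overlap, and the mutant libraries lay close to each other. *Sgcb* had a log2 fold change of -0.49 (SE 0.13, adjusted p = 0.0315), and -0.12 after scaling (95% interval -0.30 to 0.06, adjusted p = 0.316).

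*Sgca*, alpha-sarcoglycan, was the most abundant member in every library, at 171, 139 and 168 TPM with LrpprcWT and at 149, 138 and 135 TPM with LrpprcP27A. The groups overlapped, because LrpprcWT replicate 2 lay below LrpprcP27A replicate 1. The log2 fold change of *Sgca* was -0.17 (SE 0.11, adjusted p = 0.240) on the TPM scale and turned to 0.20 (95% interval 0.01 to 0.39, adjusted p = 0.137) after median-of-ratios scaling and to 0.08 after quantile normalization. On the scaled values the LrpprcP27A libraries were at 166, 162 and 149.6 and the LrpprcWT libraries at 139, 143 and 134, so that all 3 mutant libraries were then above. Neither scale gave a call of *Sgca*. *Sgcb* did not overlap on the scaled values either, at 61.2, 57.5 and 55.7 with LrpprcWT and 53.5, 55.2 and 51.8 with LrpprcP27A. The other members overlapped there. The share of all tested genes without overlap was not computed on that scale.

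*Sgcd*, delta-sarcoglycan, was the least abundant member in 6 of 6 libraries, at 4.42, 2.36 and 3.01 TPM with LrpprcWT and at 2.12, 3.83 and 3.86 TPM with LrpprcP27A. The highest value was in the wild-type group and the lowest in the mutant group, and the values between them were mixed. Its group means were 3.26 ± 1.06 and 3.27 ± 0.995 TPM (SD, n = 3 each). The log2 fold change had a 95% interval of -0.53 to 0.53 (adjusted p = 0.996) and was 0.29 after scaling (adjusted p = 0.376).

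*Sspn* encodes sarcospan, a small membrane protein that stabilizes the sarcoglycans and dystroglycan. Its level was 57.2, 43.7 and 53.7 TPM with LrpprcWT and 38.3, 38.5 and 38.9 TPM with LrpprcP27A. The mutant libraries lay together below the wild-type ones. This gave a log2 fold change of -0.40 (SE 0.12, adjusted p = 0.0473), and of -0.03 after scaling (95% interval -0.21 to 0.15, adjusted p = 0.798). Without a trend of the variance on the mean level in limma, the adjusted p was 0.0609.

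*Dtna*, alpha-dystrobrevin, is a cytoplasmic relative of dystrophin that binds it and the syntrophins. It was at 19.1, 14.5 and 17.4 TPM with LrpprcWT and at 12.5, 12.3 and 11.4 TPM with LrpprcP27A, again without overlap. For *Dtna* the log2 fold change was -0.45 (SE 0.13, adjusted p = 0.0422), and -0.10 after scaling (95% interval -0.31 to 0.10, adjusted p = 0.433). The non-coding gene *Gm47898* overlaps *Dtna* on the opposite strand, with a mean of 1.67 TPM, and the sources used here do not state whether reads were assigned by strand.

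*Dmd* itself did not pass the test. The gene-level value sums full-length dystrophin and its shorter products, and it was 13.8, 6.33 and 9.34 TPM with LrpprcWT and 5.33, 8.09 and 6.63 TPM with LrpprcP27A. LrpprcWT replicate 1 was the highest, and LrpprcWT replicate 2 lay below 2 of the 3 mutant libraries. The group means were 9.82 ± 3.75 and 6.69 ± 1.38 TPM (SD, n = 3 each), with a log2 fold change of -0.45 (95% interval -1.02 to 0.12, adjusted p = 0.177). After scaling the value was -0.11 (adjusted p = 0.741). The log2 fold change of *Dmd* ranged from -0.70 to -0.20 over the fits that left out a library.

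*Utrn* encodes utrophin, which resembles dystrophin and in adult muscle is concentrated at the neuromuscular junction. It was at 9.81, 4.96 and 6.66 TPM with LrpprcWT and at 4.74, 3.98 and 5.08 TPM with LrpprcP27A. One mutant library, replicate 3, lay above the lowest wild-type library. *Utrn* had a log2 fold change of -0.50 (SE 0.22, adjusted p = 0.101), with an adjusted p of 0.00897 in the fit with the replicate block, and of -0.18 after scaling (adjusted p = 0.459). The neuromuscular junction list, 7 genes of which 4 were called lower, summed to 74.0 to 116 TPM with LrpprcWT and to 48.4 to 54.4 TPM with LrpprcP27A. After scaling 2 of them were called lower, and 23.3% and 6.03% of all tested genes were on the 2 scales. In that list *Chrna1*, *Chrng*, *Dok7* and *Colq* were called lower, while *Musk*, *Rapsn* and *Chrne* were not called. The mean of *Chrna1*, picked after its values were seen, was 30.0 TPM with LrpprcWT and 5.66 TPM with LrpprcP27A. The part of the junction in the *Utrn* values was not tested.

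Utrophin can take the place of dystrophin at the membrane, so the level of *Utrn* relative to *Dmd* was compared within each library. The ratio of TPM values was 0.712, 0.783 and 0.713 with LrpprcWT and 0.889, 0.492 and 0.766 with LrpprcP27A. The mutant group held both the highest and the lowest ratio. The mean log2 ratio (on TPM + 1) differed by -0.05 between LrpprcP27A and LrpprcWT (exact permutation test, two-sided, p = 0.9). The test permuted the 3 against 3 libraries freely and cannot give a p under 0.1. It did not use the same-numbered pairs. The difference turned to 0.16 without LrpprcP27A replicate 2.

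**Figure D2:**
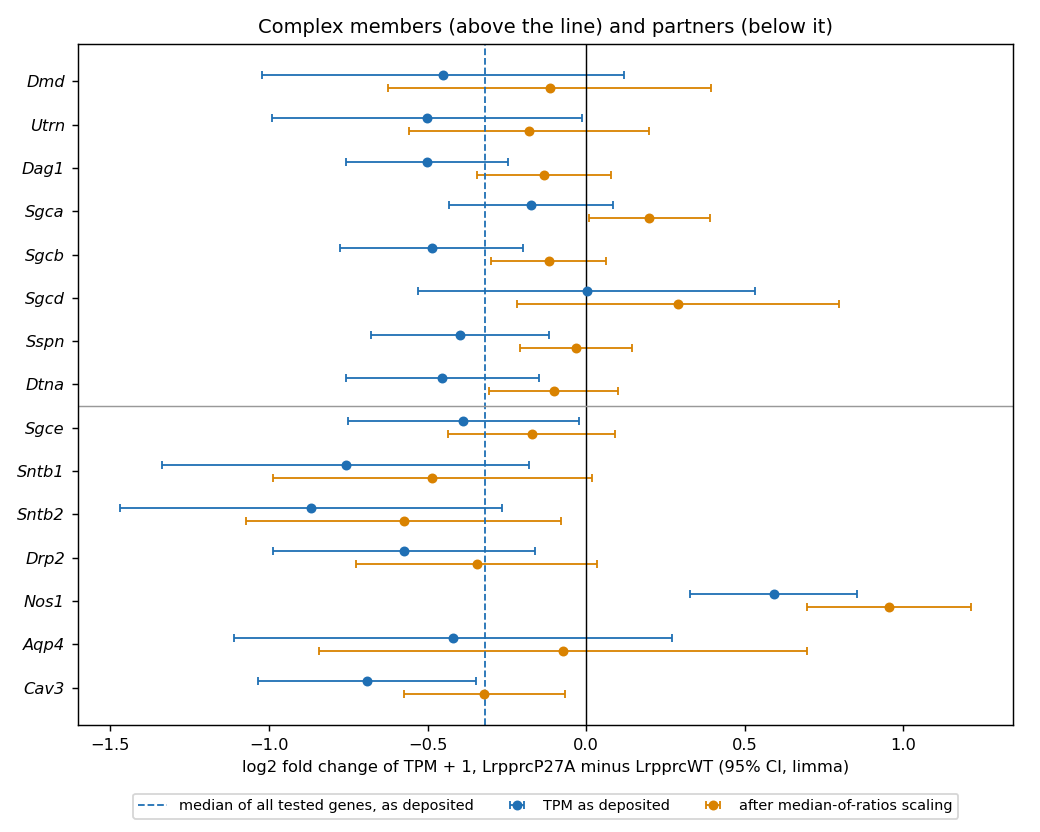
Log2 fold change of TPM + 1 (LrpprcP27A minus LrpprcWT) with its 95% interval from limma, for the 8 complex members and tested partners, on the deposited TPM scale and after median-of-ratios scaling. The dashed line is the median of all tested genes on the TPM scale (-0.32). On that scale most members lie below it, and the 95% interval of each member includes it. Nos1 is above 0 on both scales.

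Ordered by level with LrpprcWT, the members ran *Sgca*, *Dag1*, *Sgcb*, *Sspn*, *Dtna*, *Dmd*, *Utrn* and *Sgcd*. Across the LrpprcWT libraries the ranges of *Sgcb* and *Sspn* overlapped, as did those of *Dmd* and *Utrn*, while the other neighbours in that order did not. Across the LrpprcP27A libraries the order of the means was the same, and no neighbours overlapped. The levels are TPM, which are per transcript length.

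The ratios of *Dag1* and of *Dtna* to *Sgcb* overlapped between the groups. Over the 6 libraries, the log2(TPM + 1) values of *Sgcb* correlated with those of *Sspn* (Pearson r = 0.996), *Dtna* (r = 0.993) and *Dag1* (r = 0.986). After median-of-ratios scaling the values of r were 0.796, 0.936 and 0.903. These are descriptions over 6 points that share the group difference and the low LrpprcWT replicate 2. The ratio of *Dag1* to *Sgcb* within a library was 1.63 ± 0.0828 with LrpprcWT and 1.62 ± 0.0366 with LrpprcP27A, and that of *Dtna* to *Sgcb* was 0.254 ± 0.00473 and 0.256 ± 0.00893 (SD, n = 3 each).

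The ratio of *Sgca* to *Sgcb* did not overlap between the groups. It was 2.27, 2.48 and 2.41 with LrpprcWT and 3.11, 2.93 and 2.89 with LrpprcP27A, so that every mutant library was above every wild-type one. The ratio of *Sspn* to *Sgcb* was 0.762, 0.780 and 0.769 with LrpprcWT and 0.799, 0.821 and 0.836 with LrpprcP27A, likewise without overlap. A ratio within a library does not depend on the scaling of that library. *Sgcb* was taken as the denominator after its values were seen, so these ratios are descriptions with no test, and they do not show which of the paired mRNAs moved.

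**Figure D3:**
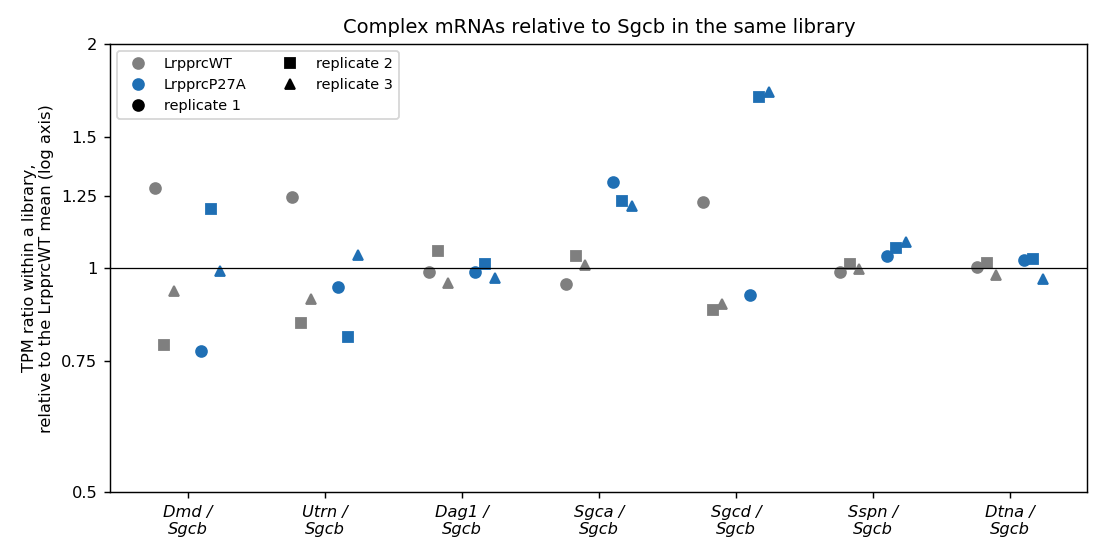
TPM of complex genes divided by that of Sgcb in the same library, relative to the LrpprcWT mean of that ratio, on a log axis, with 1 point per library. The 3 LrpprcP27A points lie above the LrpprcWT points for Sgca and Sspn and overlap them for Dag1 and Dtna.

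Across the libraries *Dmd* followed *Sgcb* less closely than *Dag1* did (Pearson r = 0.811). The log2(TPM + 1) values of *Dmd* were most like those of *Zfhx4* (Pearson r = 0.997), *Dmxl1* (r = 0.995) and *Amot* (r = 0.994) over the 6 libraries. Among 11610 genes compared with it, 510 had an r over 0.9. *Zfhx4* was at 2.79, 1.31 and 2.00 TPM with LrpprcWT and at 1.11, 1.63 and 1.32 TPM with LrpprcP27A, with the same rank order of libraries as *Dmd*.

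The complex partners outside the 8 names were 13 genes, of which 9 passed the filter. Of these, 4 were called lower, among them *Sntb2*, *Drp2* and *Cav3*, and 1 was called higher (*Nos1*). Of all tested genes, 23.3% were called lower and 1.34% higher. After scaling none was called lower and *Nos1* was still called higher, beside 6.03% lower and 5.25% higher among all tested genes. With the block and the scaling together 1 was called lower (*Sntb2*), beside 15.8% of all tested genes. The count of lower calls was 0 without LrpprcWT replicate 1, LrpprcWT replicate 3 or LrpprcP27A replicate 3, 1 without LrpprcP27A replicate 2, 2 without LrpprcP27A replicate 1 and 6 without LrpprcWT replicate 2.

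*Nos1*, neuronal nitric oxide synthase, is anchored to the complex at the fibre membrane. It was at 26.4, 26.4 and 29.2 TPM with LrpprcWT and at 46.5, 38.8 and 40.1 TPM with LrpprcP27A. All 3 mutant libraries were above all 3 wild-type ones, and the mean with LrpprcP27A was 1.53 times that with LrpprcWT. On the log2 scale *Nos1* was higher by 0.59 (SE 0.12, adjusted p = 0.0181) and by 0.95 after scaling (adjusted p = 0.0168). The call on the TPM scale was lost without LrpprcWT replicate 1, LrpprcWT replicate 3 or LrpprcP27A replicate 3.

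The beta-syntrophins, adaptor proteins at the membrane and the neuromuscular junction, had low levels. *Sntb2* was at 7.40, 2.80 and 5.25 TPM with LrpprcWT and at 2.63, 1.98 and 2.04 TPM with LrpprcP27A (log2 fold change -0.87, SE 0.26, adjusted p = 0.0455, and -0.58 after scaling). *Sntb1* was at 5.70, 2.22 and 3.62 TPM and at 2.06, 1.87 and 1.34 TPM, with a log2 fold change of -0.76 (adjusted p = 0.0564, and 0.00132 with the replicate block) and of -0.48 after scaling. In both genes the 3 mutant libraries were below the wild-type ones, the lowest of which was LrpprcWT replicate 2.

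*Cav3*, muscle caveolin, which binds beta-dystroglycan, was at 105, 74.2 and 100.3 TPM with LrpprcWT and at 59.3, 60.9 and 50.6 TPM with LrpprcP27A. The groups did not overlap (log2 fold change -0.69, SE 0.15, adjusted p = 0.0231, and -0.32 after scaling). *Drp2*, a dystrophin-related protein, was at 2.87, 1.97 and 1.98 TPM with LrpprcWT and at 1.62, 0.846 and 1.14 TPM with LrpprcP27A, also without overlap (log2 fold change -0.58, SE 0.18, adjusted p = 0.0491, and -0.35 after scaling). Epsilon-sarcoglycan, *Sgce*, was at 1.201 to 1.94 TPM and at 0.841 to 1.17 TPM (log2 fold change -0.39, adjusted p = 0.0926, and 0.0331 with the replicate block, and -0.17 after scaling). The water channel *Aqp4* ranged from 9.70 to 23.8 TPM with LrpprcWT and from 8.20 to 14.3 TPM with LrpprcP27A, with a log2 fold change of -0.42 (adjusted p = 0.280) and of -0.07 after scaling.

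Outside the fibre, dystroglycan binds proteins of the basement membrane. Of 6 such ligand genes listed, 5 were tested and 3 were called lower (23.3% of all tested genes were), with a list median of -0.74 on the log2 scale, beside -0.32 over all tested genes. Without LrpprcWT replicate 1 or 3 the count was 0, without LrpprcP27A replicate 2 or 3 it was 1, without LrpprcP27A replicate 1 it was 2, and without LrpprcWT replicate 2 it was 4. *Bgn*, the proteoglycan biglycan, which also binds sarcoglycans, was at 90.1, 51.4 and 92.9 TPM with LrpprcWT and at 34.03, 16.7 and 29.2 TPM with LrpprcP27A. The groups did not overlap, the lowest wild-type library being again LrpprcWT replicate 2, with a log2 fold change of -1.53 (SE 0.29, adjusted p = 0.0168). After scaling alone *Bgn* was the 1 ligand gene called lower (-1.16, adjusted p = 0.0351), beside 6.03% of all tested genes. With the replicate block and the scaling together 4 were called lower, beside 15.8% of all tested genes.

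*Agrn*, agrin, was at 13.4, 6.16 and 9.75 TPM with LrpprcWT and at 6.06, 4.33 and 4.49 TPM with LrpprcP27A (log2 fold change -0.81, adjusted p = 0.0449). *Lama2*, the laminin chain of the adult fibre's basement membrane, was at 12.02, 6.96 and 10.1 TPM and at 5.52, 4.63 and 5.71 TPM (log2 fold change -0.74, adjusted p = 0.0308). Neither gene overlapped between groups. After scaling, their log2 fold changes were -0.48 (adjusted p = 0.130) and -0.41 (adjusted p = 0.0683).

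Alpha-dystroglycan binds laminin through a sugar chain that a series of enzymes builds. Of 18 such genes listed, 16 were tested, 1 was called lower and none higher, with a list median of -0.30, beside 23.3% of all tested genes called lower. With the replicate block, 7 were called lower, beside 48.4% of all tested genes. Leaving out LrpprcWT replicate 2 gave 9, leaving out LrpprcP27A replicate 1 gave 1, and leaving out any other library gave 0. *Dpm2*, a subunit of the enzyme that makes the mannose donor, was the 1 called, at 8.67, 6.09 and 9.83 TPM with LrpprcWT and at 5.65, 3.57 and 4.80 TPM with LrpprcP27A (log2 fold change -0.69, adjusted p = 0.0413, and -0.37 after scaling). After scaling, no gene of the list was called lower and 2 were called higher, beside 6.03% and 5.25% of all tested genes.

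Costameres are the membrane sites where the complex and the integrins join the outer sarcomeres. Of 15 costamere genes tested, 4 were called lower and 1 higher, with a median of -0.37, beside 23.3% of all tested genes called lower. With the replicate block 8 were called lower, beside 48.4% of all tested genes, so neither count stands far from the background. After scaling none was called lower and 2 were called higher, beside 6.03% and 5.25% of all tested genes. With the block and the scaling together 5 were called lower (*Itga7*, *Itgb1*, *Ilk*, *Parva* and *Lims1*), beside 15.8% of all tested genes. The lower count was 10 without LrpprcWT replicate 2, 4 without LrpprcP27A replicate 1, 1 without LrpprcP27A replicate 2 and 0 without any of the other 3 libraries. The 2 lowest of those called encode partners in one adhesion complex: *Parva* (parvin) was at 7.91, 4.51 and 7.03 TPM with LrpprcWT and at 3.72, 2.43 and 3.28 TPM with LrpprcP27A (log2 fold change -0.83, adjusted p = 0.0289, and -0.53 after scaling), and *Ilk* (integrin-linked kinase) had a log2 fold change of -0.80 (adjusted p = 0.0414, and -0.43 after scaling). *Ilk* was at 69.2, 35.9 and 59.8 TPM with LrpprcWT and at 35.9, 25.4 and 29.9 TPM with LrpprcP27A, and the groups met at LrpprcWT replicate 2 and LrpprcP27A replicate 1.

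*Synm* encodes synemin, an intermediate filament protein that binds dystrobrevin and desmin. It was at 151, 163 and 117 TPM with LrpprcWT and at 221, 251 and 239 TPM with LrpprcP27A, and every mutant library was above every wild-type one. On the log2 scale *Synm* was higher by 0.73 (SE 0.14, adjusted p = 0.0167) and by 1.10 after scaling (adjusted p = 0.0292). Its call on the TPM scale was lost without LrpprcWT replicate 3. *Itga7*, the laminin-binding integrin of muscle, was at 40.3, 32.6 and 37.6 TPM with LrpprcWT and at 23.5, 25.3 and 21.5 TPM with LrpprcP27A (log2 fold change -0.63, adjusted p = 0.0183, and -0.27 after scaling with an adjusted p of 0.117).

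**Figure D4:**
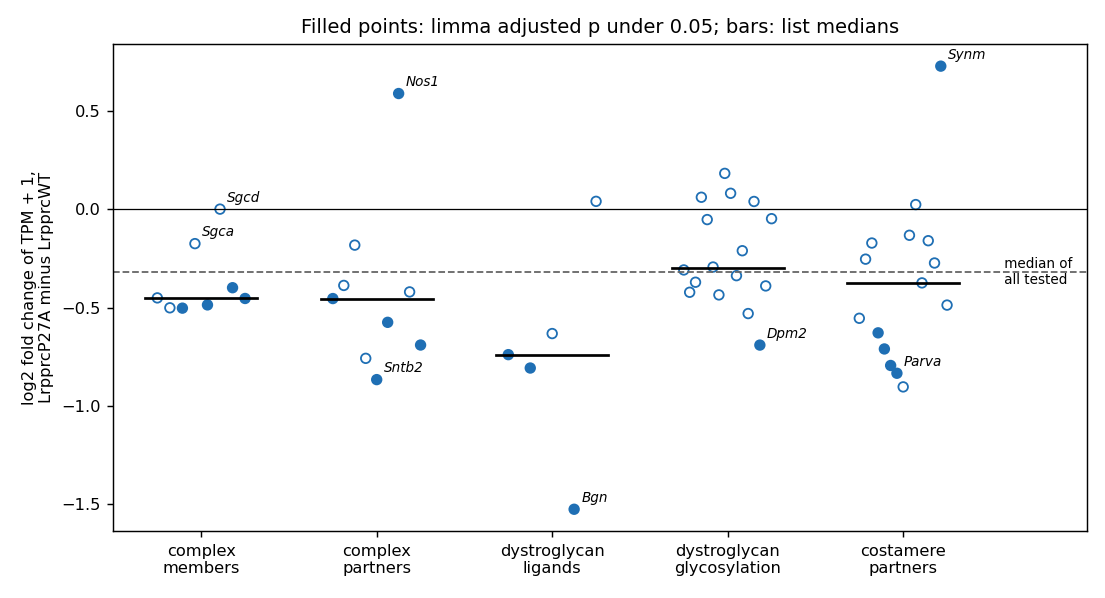
Log2 fold change of TPM + 1 (LrpprcP27A minus LrpprcWT) for each tested gene of the complex members and of the 4 other lists, with filled points for an adjusted p under 0.05, bars for list medians and a dashed line for the median of all tested genes (-0.32). Nos1 and Synm are the filled points above 0, and Bgn is the lowest.

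Markers of several cell types differed between the groups on the TPM scale, where 23.3% of all tested genes were called lower. The summed level of the 8 members was 363 to 472 TPM with LrpprcWT and 321 to 338 TPM with LrpprcP27A, and the ratio of the group means was 0.777. The 9 myofibre markers, which were high in every library, summed to 119722 to 132551 and to 108742 to 122708 TPM (ratio 0.923), and 1 of 9 was called lower. Log2 fold changes were below 0 in 4 of these 9, with a median of 0.02, beside -0.32 over all tested genes. Of the 5 fibroblast markers 5 were called lower, and their sum was 811 to 1350.2 TPM with LrpprcWT and 212 to 464 TPM with LrpprcP27A. Macrophage markers were called lower in 4 of the 4 tested, with sums over 5 genes of 33.1 to 65.3 and 12.3 to 23.9 TPM. The fifth, *Cd163*, was under the filter and went the other way, at 0.315, 0.581 and 0.480 TPM with LrpprcWT and at 1.08, 0.821 and 1.67 TPM with LrpprcP27A (named after its values were seen).

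The markers of regenerating or immature fibres differed most among these lists. Their 4 genes were all called lower on both scales, and they summed to 49.98 to 127 TPM with LrpprcWT and to 7.10 to 22.3 TPM with LrpprcP27A, a ratio of 0.131. Endothelial markers were called lower in 2 of 5 (ratio 0.598), and smooth muscle and pericyte markers in 2 of 6 (ratio 0.765), beside 23.3% of all tested genes. After median-of-ratios scaling 3 fibroblast and 2 macrophage markers were called lower, and no endothelial or smooth muscle and pericyte marker was. On that scale 6.03% of all tested genes were called lower. LrpprcWT replicate 2 had the lowest LrpprcWT sum of the fibroblast, macrophage, endothelial, smooth muscle and immature-fibre lists, as it had for the members. No marker list had a gene at 0 in all libraries. In whole-muscle RNA, fewer cells of a type and less RNA per cell cannot be told apart, and the part of these markers in the member values was not tested.

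**Figure D5:**
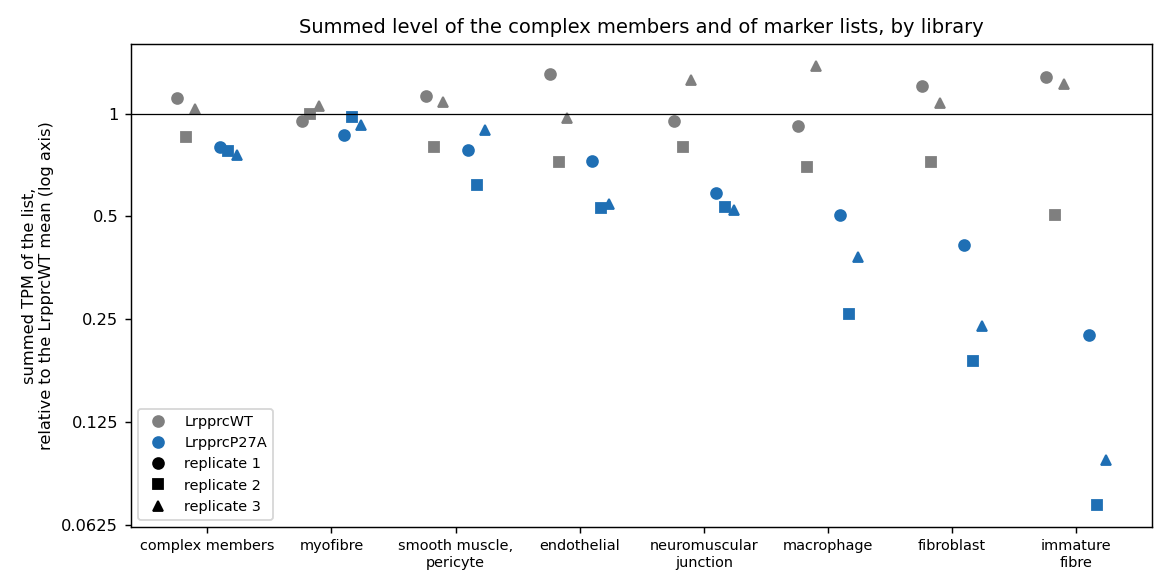
Summed TPM of the 8 complex members and of 7 marker lists in each library, divided by the LrpprcWT mean of that list, on a log axis, with 1 point per library. The ratio of group means is 0.777 for the members, 0.280 for fibroblast, 0.382 for macrophage and 0.131 for immature-fibre markers, and the LrpprcWT replicate 2 points are low in most lists.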

How the data were processed

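RNA was extracted from 6 whole tibialis anterior muscles, 3 per group. Per the methods and the submitters' processing notes, the authors sequenced libraries from a TruSeq kit as 100 bp paired-end reads, trimmed them at Q20 with a minimum length of 50 bp, mapped them to GRCm39 with CLC Genomics Workbench 20.0.4, and deposited TPM values per gene. Counts and depth were not used here, so the precision set by depth is unknown, and a TPM scale makes each gene's value depend on all others.

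The log2(TPM + 1) values of genes with a mean of at least 1 TPM were fitted with limma 3.58.1 (R 4.3.3, variance trend), 3 against 3 libraries, with Benjamini-Hochberg adjustment over all 11611 tested genes and a call at an adjusted p under 0.05. Every fold change is on that scale, which understates changes of low genes. In simulated data with the same 11611 genes the fit recovered 71 of 100 genes changed by 1 on the log2 scale and 95 of 100 changed by 2. It also called 11 unchanged genes. The changed genes had a mean log2(TPM + 1) above 2, and the simulation had independent noise, no pairs and no shift over all genes. Changes as small as those of the members were not simulated, so it does not give the power for them. Alternatives were a pseudocount of 0.1, other filters, no trend, the Kruskal-Wallis test the study used, 2 scalings, a replicate block and each library left out.

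The labels give both groups the same library numbers, and the study's legend describes contralateral muscles. Deviations from the group means correlated at 0.363, 0.528 and 0.356 in the same-numbered pairs, and at -0.362 to 0.00402 in the other pairings. Deviations within a group of 3 libraries sum to 0, so these correlations are not independent of each other. The numbers were taken as pairs from the labels and the legend together with these values. Per the study's methods, replicates within a group came from different mice.

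The genes and lists were chosen with earlier results of these data known. Named were the 8 members, *Lrpprc*, each tested complex partner (some of which are not reported here), the 2 lowest and 2 highest called genes of the other lists, and the 3 genes most correlated with *Dmd*. Some genes of the marker lists, and genes too low to test, were named besides these. Positions and promoter sequences are from GENCODE on GRCm39. Protein sequences were not used.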

Additional observations from a re-analysis of the deposited data

How the results depend on the processing

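The calls of the complex members depended on the setting, and the cause was not tested. The complex members called lower (4) became 0 with no filter and with the Kruskal-Wallis test (4 with an unadjusted p under 0.05 in each, in that test the smallest possible, 0.0495), 0 with median-of-ratios scaling (0 unadjusted), 0 with quantile normalization (2 unadjusted) and 0 with the replicate block and scaling together, and ran from 0 to 7 over the fits that left out a library. No setting called a member higher. With the replicate block alone, 5 were called lower. *Sgca* turned to 0.20 with median-of-ratios scaling, alone or with the block, and to 0.078 with quantile normalization. *Sgcd* ran from -0.16 to 0.21 and the log2 ratio of *Utrn* to *Dmd* from -0.20 to 0.16 over the fits that left out a library.

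Over all tested genes, 2705 were called lower and 156 higher. No filter gave 42 and 9, a mean of at least 5 TPM gave 1560 lower, quantile normalization 518 and 493, scaling by median ratios 700 and 610, the Kruskal-Wallis test 0 in each direction (5530 and 407 at an unadjusted p under 0.05), the replicate block 5619 and 312, the block with scaling 1839 lower and 1561 higher, and leaving out a library 15 to 6913 lower and 3 to 304 higher.

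Complex partners called lower (4) became 0 with no filter, the Kruskal-Wallis test, median-of-ratios scaling or quantile normalization (6, 6, 2 and 1 unadjusted), 2 at a mean of at least 5 TPM, 1 with the block and scaling, and 0 to 6 without a library. The 1 called higher became 0 with no filter and the Kruskal-Wallis test (1 unadjusted in each) and 0 to 1 without a library. Ligands called lower (3) became 0 with no filter and the Kruskal-Wallis test (4 and 3 unadjusted), 1 with either scaling, and 0 to 4 without a library, and 4 were called lower and 1 higher with the block and scaling. Glycosylation genes called lower (1) became 0 with no filter, the Kruskal-Wallis test or either scaling (7, 8, 1 and 0 unadjusted), 7 with the block, and 0 to 9 without a library, with 2 called higher under either scaling and 6 with the block and scaling (1 lower). Costamere genes called lower (4) became 0 with no filter, the Kruskal-Wallis test or either scaling (6, 6, 4 and 4 unadjusted), 8 with the block, 5 with the block and scaling, and 0 to 10 without a library. The 1 called higher became 0 with no filter and the Kruskal-Wallis test (1 unadjusted in each), 2 with median-of-ratios scaling alone or with the block, and 0 to 1 without a library.

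With 3 libraries per group and no depth, small differences between members cannot be resolved.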

Other observations

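Some genes of the complex lists were too low to test. *Sgcz* (zeta-sarcoglycan) and *Sntg1* (a gamma-syntrophin) were listed at 0 in 6 of 6 libraries. The other gamma-syntrophin, *Sntg2*, was at 0.144 to 0.189 TPM with LrpprcWT and at 0.0598 to 0.179 TPM with LrpprcP27A, and *Dtnb* (beta-dystrobrevin) was at 0.294 to 0.358 and at 0.209 to 0.393 TPM, with overlapping groups in both genes.

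Schwann cell markers were called lower in 0 of the 3 tested, with sums of 19.9 to 39.2 TPM with LrpprcWT and 17.6 to 36.7 TPM with LrpprcP27A. Satellite cell markers were called lower in 1 of the 2 tested, with sums of 4.78 to 7.81 and 2.99 to 4.03 TPM. Both counts stand beside 23.3% of all tested genes called lower.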
